A study of Rattus norvegicus with 8 samples.

Results

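The genes described here are the insulin-like growth factor (IGF) system on the array, namely the ligand Igf1, the receptors Igf1r, Insr and Igf2r, and the binding proteins Igfbp2 to Igfbp7. They were chosen by gene symbol, as every probe set that the platform annotation pairs with 1 of these 10 genes, of 14217 genes named on the array. That gave 21 probe sets of the 31042 that are not array controls, and 14 of these 21, from 8 genes, were bright enough to be tested. A probe set is the group of short oligonucleotides on the array that together report 1 transcript.

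RNA came from FRTL-5, a line of rat thyroid follicular cells that depends on thyrotropin (TSH), in its sub-clone SB5. Each of the 4 groups had 2 arrays: cells with the L629F human TSH receptor given 1 mM sodium iodide, L629F cells given 1 mM sodium chloride, wild type (WT) receptor cells given 1 mM sodium iodide, and WT receptor cells given 1 mM sodium chloride. The L629F receptor is constitutively active, and the chloride groups are controls of equal salt strength. All groups shared the rat background, a stably introduced human receptor and 5 mU/ml bovine TSH. The comparison asks what excess iodide does to transcripts in thyroid cells with either receptor. The labels give neither the duration of treatment, nor the number of clones behind each line, nor whether the medium held insulin. Nor do they say that the 2 replicates came from separate cultures. The p-values therefore rest on a spread between arrays that may be only technical.

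As background, IGF-I and IGF-II act through the IGF-I receptor, a tyrosine kinase related to the insulin receptor, and signal onward through IRS adaptors, PI3-kinase and AKT. The IGF-II receptor has no kinase; it carries IGF-II and mannose-6-phosphate-tagged enzymes to lysosomes. IGF-binding proteins hold IGFs outside the cell and can restrain or prolong their action. In rat FRTL-5 cells, TSH and insulin or IGF-I are known to act together on growth.

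The promoters of Igfbp5, Igfbp2 and Igfbp7 are shown because the results turn on these binding proteins, and because Igfbp2 and Igfbp5 stand next to each other in the gene order of chromosome 9. Each line gives the 250 bases before the gene's start in RefSeq (rat build GRCr8), read along the gene's strand, and the capitals mark motif matches.
Igfbp5, chr9:81914188-81914437, minus strand: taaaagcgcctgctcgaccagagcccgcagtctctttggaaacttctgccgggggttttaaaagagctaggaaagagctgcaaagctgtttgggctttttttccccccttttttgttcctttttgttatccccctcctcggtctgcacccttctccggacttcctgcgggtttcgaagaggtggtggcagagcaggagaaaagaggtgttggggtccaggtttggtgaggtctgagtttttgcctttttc
Igfbp2, chr9:81864561-81864810, plus strand: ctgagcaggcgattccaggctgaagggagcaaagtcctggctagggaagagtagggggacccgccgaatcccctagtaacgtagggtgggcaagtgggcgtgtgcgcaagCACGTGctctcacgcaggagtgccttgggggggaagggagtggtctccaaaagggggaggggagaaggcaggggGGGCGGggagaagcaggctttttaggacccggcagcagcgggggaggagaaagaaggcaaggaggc
Igfbp7, chr14:31091486-31091735, plus strand: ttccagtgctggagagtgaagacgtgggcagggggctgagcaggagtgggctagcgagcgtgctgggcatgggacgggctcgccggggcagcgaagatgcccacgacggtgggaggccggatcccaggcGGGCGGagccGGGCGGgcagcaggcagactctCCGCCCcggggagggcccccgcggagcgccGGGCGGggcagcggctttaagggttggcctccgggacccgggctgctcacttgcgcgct

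Both strands were searched for the E-box CACGTG, the cAMP response element TGACGTCA, the FOXO motif GTAAACA, the TATA box TATAAA and the GC box GGGCGG. No 2 matches overlapped in the stretches shown. Igfbp2 held an E-box 140 bases before the start and a GC box 66 bases before it, each counted from the motif's first base. Igfbp7 held 4 GC boxes, 1 of them on the opposite strand (CCGCCC), and Igfbp5 held none of the 5 motifs. Of 33469 rat promoter stretches of this length, 5.59% held CACGTG, 30.5% GGGCGG, 1.59% TGACGTCA, 3.21% GTAAACA and 12.9% TATAAA. Among all 10 genes the E-box was found in 3, Igf1r, Igf2r and Igfbp2, and the FOXO motif in 2, Insr and Igfbp6. A match describes letters and not a site in use.

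Of the 21 probe sets, 14 from 8 genes passed the filter on dim signals, which left out the lowest 40% by mean log2 signal (a geometric mean under 65.4). All 6 receptor probe sets passed and 8 of the 12 for binding proteins, but none of the 3 for Igf1 and neither of those for Igfbp3. Signals are MAS5 intensities on a linear scale, a probe set's brightness after the arrays were scaled to a common level, and cannot be set against another probe set's. Changes are differences in log2(signal + 35.3), tested with limma over 18625 probe sets, and called where the Benjamini-Hochberg adjusted p was under 0.05.

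Within groups, the correlation between arrays was 0.963 to 0.976 over the tested probe sets. The 25th percentile of signals was 40.8 to 43.1 on L629F arrays and 29.3 to 31.6 on WT arrays, so low signals were higher in the L629F line, which bears on the dim members. The thyroid cell label was borne out by its markers, with 9 of 11 past the filter, among them Tg (10748 to 16582), Pax8 and Nkx2-1. Markers of fibroblasts (3 of 9 past the filter), leucocytes (2 of 6), endothelium (1 of 4) and C cells (1 of 5) were mostly dim. Dcn had no more than 12.8 and Chga no more than 6.20, the lowest maxima of the fibroblast and C cell markers. Those past the filter reached 229.5 (Acta2), 226 (Pdgfra) and 186 (Col1a1) for fibroblasts, and 144 (Cd3e) and 133 (Lyz2) for leucocytes. For endothelium Vwf reached 281, and for C cells Slc18a2 reached 202. The summed signals of the fibroblast markers were 431 to 798 on iodide and 472 to 598 on chloride arrays. Those of the leucocyte markers were 295 to 515 and 199 to 364. For endothelium the sums were 149 to 437 on iodide and 271 to 374 on chloride arrays, with the lowest on L629F iodide arrays. For C cells they were 259.9 to 381 and 214 to 268. The part of these cell types in the results was not tested. In a bulk sample, fewer cells of a type and less RNA per cell cannot be told apart.

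Igfbp5, a binding protein, was called lower with iodide in the average over both lines, by 1 of its 3 tested probe sets. Igfbp7, a relative of the binding proteins, was lower in L629F than in WT cells. Each was the only member called in its comparison: 1 of 14 with iodide, beside 0.848% of all probe sets called and 0.644% called lower, and 1 of 14 between the lines, beside 1.73% called and 0.607% called lower. The neighbour gene Igfbp2 and 1 of the 2 probe sets of Igf2r, the IGF-II receptor gene, had lower signals on every iodide array than on every chloride array but did not pass. Igf1r and Insr did not pass in any comparison.

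The ligand Igf1, which encodes IGF-I, was near the bottom of the scale and could not be tested. Its 3 probe sets ran from 1.45 to 56.2, and no array reached the filter level. The brightest, 1388469_at, had 56.2 and 29.4 in L629F iodide and 38.1 and 49.9 in L629F chloride cells, and 42.3 and 34.9 in WT iodide and 10.1 and 27.5 in WT chloride cells. No statement on the presence of Igf1 is drawn from signals at this level. Of 7 further genes of the ligand and binding protein family, 4 had a probe set past the filter. With iodide limma called 0, beside 0.848% of all probe sets, and 0 had an unadjusted p under 0.05, beside 12.2%. Between the lines limma called 0, beside 1.73%, and 1 had an unadjusted p under 0.05, beside 18.0%. That gene was Ins1, higher in L629F cells by 0.80 ± 0.22 (adjusted p = 0.0952). Igfbp1, induced when insulin is low, stayed at 3.46 to 51.3. Igf2, the gene of the other IGF, was read at 341 and 320.1 in L629F iodide and 223 and 303 in L629F chloride cells, and at 137 and 389.9 in WT iodide and 274 and 264 in WT chloride cells. Its groups overlapped in WT cells, and its 3 other probe sets did not pass the filter.

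Igf1r, the receptor that carries the growth signal of both IGFs, was read by 2 probe sets, which correlated at 0.43 over the 8 arrays. With 1392492_at the signals were 1252 and 974 in L629F iodide and 919 and 959 in L629F chloride cells, and 1100.02 and 1252 in WT iodide and 1058 and 959 in WT chloride cells. In each line both iodide arrays were above both chloride arrays, but the average change of 0.22 ± 0.12 did not pass (95% interval -0.05 to 0.48, adjusted p = 0.524). The probe set 1368123_at gave 971 and 1179 in L629F iodide and 744 and 912 in L629F chloride cells, and 813 and 1305 in WT iodide and 1037 and 1009.9 in WT chloride cells. The WT iodide replicates lay on either side of the WT chloride pair, and the average change was 0.19 ± 0.15 (95% interval -0.15 to 0.52, adjusted p = 0.691).

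Insr, the insulin receptor, had probe sets that pointed in different directions. For 1392043_at the signals were 185 and 122 in L629F iodide and 227 and 321 in L629F chloride cells, and 214 and 236 in WT iodide and 316 and 132 in WT chloride cells. For 1369051_at they were 108 and 172 in L629F iodide and 133 and 103 in L629F chloride cells, and 70.0 and 184 in WT iodide and 63.0 and 84.6 in WT chloride cells. The average changes were -0.31 ± 0.24 and 0.33 ± 0.28 (adjusted p = 0.677 and 0.699), and the 2 probe sets correlated at -0.32 over the 8 arrays, so no direction can be given for the gene.

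Igf2r, which clears IGF-II, had the lowest p of the receptors with iodide, through probe set 1386872_at. Its signals were 379 and 509 in L629F iodide cells, against 570.2 and 744 in L629F chloride cells. They were 445 and 399 in WT iodide cells, against 712 and 600.0 in WT chloride cells. The 4 iodide arrays were again below the 4 chloride arrays, and the 2 lines had like values. The average change was -0.56 ± 0.15 (95% interval -0.89 to -0.24, adjusted p = 0.117), which did not pass, with -0.53 ± 0.21 in L629F and -0.59 ± 0.21 in WT cells (adjusted p = 0.68 and 0.343). The other Igf2r probe set, 1367636_at, did not follow it. Its values were 153 and 394 in L629F iodide, 231 and 294 in L629F chloride, 226 and 216 in WT iodide and 127 and 423 in WT chloride cells, a change of -0.07 ± 0.31 (adjusted p = 0.953).

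Among the binding proteins, Igfbp5 fell with iodide when both lines were averaged, by 1 of its 3 tested probe sets. Igfbp5 encodes a secreted binding protein that also attaches to the extracellular matrix. The signal of its brightest probe set (1370960_at) was 361 and 601 in L629F iodide cells, against 702 and 1072 in L629F chloride cells. In WT iodide cells it was 420.0 and 561, against 1264 and 1125 in WT chloride cells. All 4 iodide arrays thus lay below all 4 chloride arrays, and WT chloride had the highest values.

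The mean of the 4 iodide arrays was 486 ± 114 and that of the 4 chloride arrays 1041 ± 239.6 (SD). The log2 change was -1.04 ± 0.18 (SE, 95% interval -1.44 to -0.65, adjusted p = 0.0198). The call was lost without WT chloride replicate 1 (adjusted p = 0.146) or 2 (0.0865), L629F chloride replicate 2 (0.0979) or L629F iodide replicate 1 (0.0926), with changes of -1.21 to -0.87 over the 8 fits that each left out 1 array. It was also lost without a dim filter (0.057) and without the intensity trend in the variance (0.179).

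Within a line the change of this Igfbp5 probe set was -0.85 ± 0.26 in L629F cells (adjusted p = 0.477) and -1.24 ± 0.26 in WT cells (adjusted p = 0.0889), and neither passed. The difference of the effect between L629F and WT cells was 0.39 ± 0.36 (95% interval -0.40 to 1.18, adjusted p = 0.998). The 3′ to 5′ signal ratio of GAPDH, higher where RNA is degraded, was 2.27 and 2.49 on L629F iodide, 1.54 and 2.17 on L629F chloride, 1.40 and 3.13 on WT iodide and 1.22 and 1.55 on WT chloride arrays. For beta-actin the ratio spread more widely, at 5.95 and 6.48 on L629F iodide and 5.93 and 7.90 on L629F chloride arrays. On WT arrays it was 3.66 and 9.15 with iodide and 2.23 and 5.05 with chloride, and it was not used as a covariate. With the GAPDH ratio as a covariate, the average change was -1.26 (adjusted p = 0.00979), against -1.04 without it. The change in WT cells then passed, at -1.51 (adjusted p = 0.0251). The part of RNA quality was not tested beyond this covariate.

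The other Igfbp5 probe sets had smaller or less certain differences. For 1387348_at the signals were 407 and 275 in L629F iodide and 495 and 401 in L629F chloride cells, and 322 and 282 in WT iodide and 479 and 389.6 in WT chloride cells. The groups overlapped by a small margin in L629F cells only, and the average change was -0.43 ± 0.17 (adjusted p = 0.305). For 1396152_s_at they were 83.0 and 49.9 in L629F iodide and 48.5 and 91.4 in L629F chloride cells, and 78.5 and 29.2 in WT iodide and 98.5 and 119.9 in WT chloride cells (average change -0.39 ± 0.30, adjusted p = 0.663). The remaining pair, 1397830_at and 1387347_at, was too dim to be tested, at 6.49 to 123. In L629F cells 1 of the 5 probe sets was lower on both iodide arrays than on both chloride arrays, beside 17.2% of all probe sets with the dim ones included, and in WT cells all 5 were, beside 18.4%. Of these 5, 2 were too dim to be tested, and 1396152_s_at passed the filter through its chloride arrays (geometric mean 55.5 with iodide and 85.1 with chloride). These probe sets are not independent: they report 1 gene in the same RNA, and 1396152_s_at and 1397830_at were designed from the same expressed sequence tag.

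**Figure D1:**
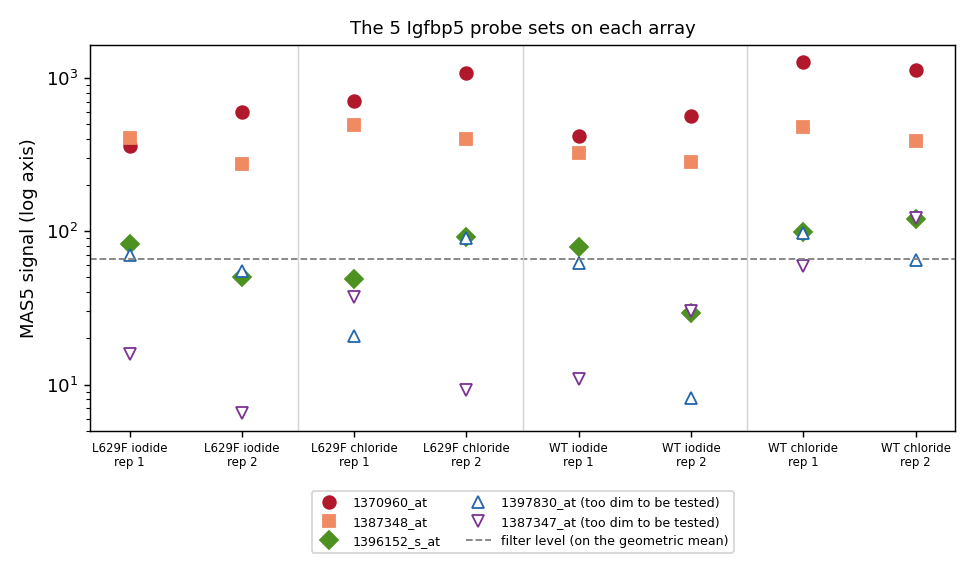
MAS5 signal (log axis) of the 5 Igfbp5 probe sets on each of the 8 arrays, 1 symbol per probe set, with open symbols for those too dim to be tested and a dashed line at the filter level of 65.4. Probe set 1370960_at was at 361 to 601 on the 4 iodide arrays and at 702 to 1264 on the 4 chloride arrays.

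Igfbp2 lies next to Igfbp5 on the chromosome and encodes a binding protein with a preference for IGF-II. Its only probe set gave signals of 278 and 261 in L629F iodide cells, against 503 and 297 in L629F chloride cells. The WT iodide cells gave 150.3 and 262, against 437 and 529 in WT chloride cells. Here too each iodide array lay below every chloride array, though L629F chloride replicate 2 came close. The average change was -0.80 ± 0.20 (95% interval -1.24 to -0.37, adjusted p = 0.0943) and did not pass. It was -0.47 ± 0.29 in L629F cells (adjusted p = 0.793) and -1.14 ± 0.29 in WT cells (adjusted p = 0.168), and the difference of the effect was 0.66 ± 0.41 (adjusted p = 0.998).

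Igfbp6, which prefers IGF-II, and Igfbp4, a binding protein that is cut by the protease PAPP-A, did not pass in any comparison. For Igfbp6 probe set 1372168_s_at the signals were 201 and 269 in L629F iodide and 164 and 169 in L629F chloride cells, and 202 and 274 in WT iodide and 192 and 209 in WT chloride cells (average change 0.31 ± 0.19, adjusted p = 0.559). Its other probe set, 1387625_at, ran from 48.3 to 155, both on L629F chloride arrays, with a change of 0.06 ± 0.32 (adjusted p = 0.965). Igfbp4 had 54.5 and 197 in L629F iodide and 85.9 and 106 in L629F chloride cells, and 112 and 46.4 in WT iodide and 82.0 and 36.5 in WT chloride cells. The L629F iodide replicates lay on either side of all the other Igfbp4 values but those of replicate 2 in both WT groups, and the average change was 0.20 ± 0.35 (95% interval -0.55 to 0.95, adjusted p = 0.875).

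Igfbp3, the main carrier of IGFs in blood, was near the bottom of the scale, with probe sets that ran from 4.30 to 72.4. Its probe set 1367652_at had 63.0 and 21.7 in L629F iodide and 67.8 and 72.4 in L629F chloride cells, and 8.06 and 54.8 in WT iodide and 4.69 and 12.3 in WT chloride cells. In a fit without the filter its difference between L629F and WT was 0.77 ± 0.31 (adjusted p = 0.283), on a scale where low signals as a whole were higher on L629F arrays. The other probe set, 1386881_at, went the other way in that fit, at -0.23 ± 0.29 (adjusted p = 0.747). The 2 probe sets correlated at 0.02 over the 8 arrays, so no direction can be given for Igfbp3. No statement on the presence of Igfbp3 is drawn from signals at this level.

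**Figure D2:**
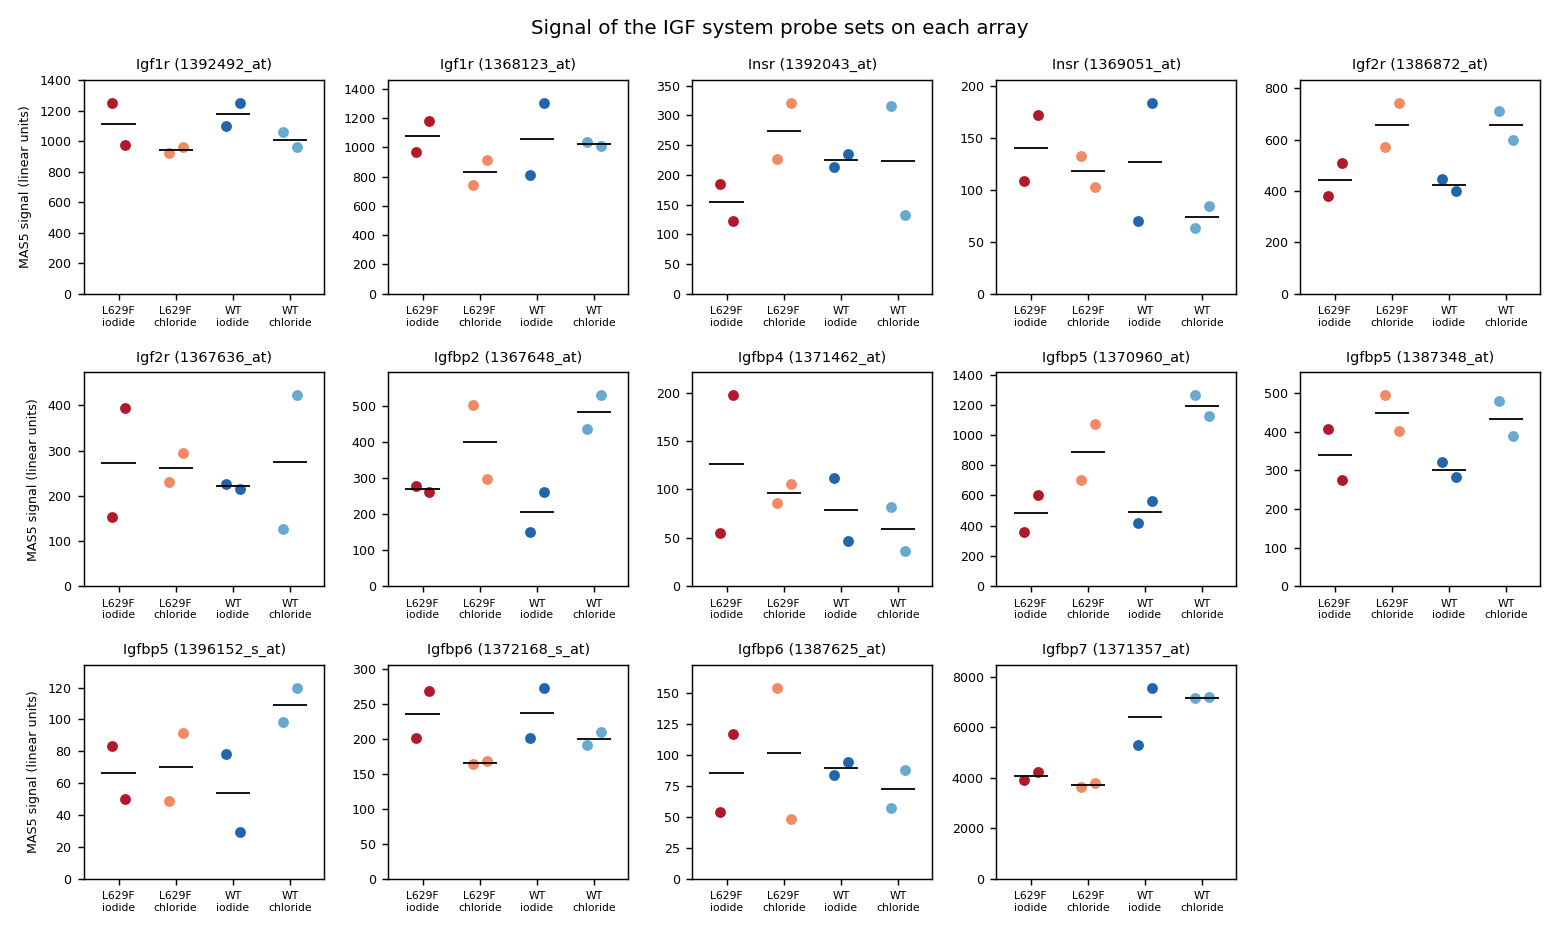
MAS5 signal (linear axis from 0) of the 14 tested probe sets in the 4 groups, with replicate 1 at the left and replicate 2 at the right of each pair of points and a bar at the group mean (n = 2 arrays). The iodide points lie below all chloride points for Igfbp5 (1370960_at), Igfbp2 and Igf2r (1386872_at), and the L629F points below all WT points for Igfbp7.

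Taking Igfbp5 (1370960_at), Igfbp2 and Igf2r (1386872_at), 3 of the 14 probe sets (21.4%) had all iodide arrays below all chloride arrays, against 2.85% of all probe sets tested. None of the 14 had them all above, against 3.41%. Since the members were put forward with results of these data known, these shares are a description. The median change over the 14 was -0.05, with 8 negative, beside a median of -0.003 and 50.6% negative over all probe sets. At an unadjusted p under 0.05 there were 4 of the 14, and 12.2% of all probe sets.

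Within single lines, limma called 0 of the 14 probe sets for iodide in L629F cells and 0 in WT cells, beside 0.0161% and 0.236% of all probe sets. At an unadjusted p under 0.05 there were 2 in L629F cells (6.97% of all) and 3 in WT cells (10.4% of all). The difference of the iodide effect between the lines passed for 0 of the 14 and for 0% of all probe sets, and 0 of the 14 had an unadjusted p under 0.05 (4.01% of all).

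The receptor lines differed in Igfbp7. Igfbp7 encodes a secreted protein related to the IGF-binding proteins that binds IGFs weakly and is deposited in the extracellular matrix. Its signal was 3927 and 4221 in L629F iodide cells, against 5277 and 7569 in WT iodide cells. With chloride it was 3649 and 3796 in L629F cells, against 7145 and 7201 in WT cells. Every L629F array was below every WT array, and WT iodide replicate 1 was the lowest of the WT values.

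The 4 L629F arrays averaged 3898 ± 243 and the 4 WT arrays 6798 ± 1031 (SD). The log2 difference over both salts was -0.79 ± 0.11 (SE, 95% interval -1.03 to -0.54, adjusted p = 0.00541), and it passed in each of the 8 fits without 1 array but not without the intensity trend (adjusted p = 0.0728). Arrays with no overlap in this direction were found for 1 of the 14 (7.14%) and for 4.08% of all probe sets. When each array was centred on its own median signal, the Igfbp7 difference was -0.96 (adjusted p = 0.00174), where the median over all tested probe sets was itself -0.16. The 8 arrays hold 1 line per receptor, so the receptor and any other difference between the lines cannot be told apart. Summed leucocyte markers were 295 to 515 on L629F and 199 to 316 on WT arrays and endothelial ones 149 to 353 on L629F and 229 to 437 on WT arrays; their part in the Igfbp7 difference was not tested.

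With chloride alone the Igfbp7 difference was -0.94 ± 0.16 (adjusted p = 0.0421; 1 of 14 called, beside 0.199% of all probe sets). This call was lost without either WT chloride array (adjusted p = 0.306 and 0.253), either L629F chloride array (0.249 and 0.12) or either L629F iodide array (0.0799 and 0.0775). With iodide alone it was -0.63 ± 0.16 (adjusted p = 0.165), where 0 of 14 passed by limma, 1 had an unadjusted p under 0.05 and 0.177% of all probe sets were called. Leaving out WT iodide replicate 2 turned that value into -0.37 and leaving out replicate 1 into -0.89. The iodide change of Igfbp7 was 0.13 ± 0.16 in L629F and -0.18 ± 0.16 in WT cells (adjusted p = 0.921 and 0.767), and -0.03 ± 0.11 on average (95% interval -0.27 to 0.21).

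No other member passed between the lines. Over both salts, Igfbp5 (1370960_at) differed by -0.25 ± 0.18 (adjusted p = 0.506), Igfbp2 by 0.05 ± 0.20 (0.933) and Igf2r (1386872_at) by 0.03 ± 0.15 (0.951). The probe sets of Igf1r gave -0.09 ± 0.12 and -0.12 ± 0.15 (adjusted p = 0.747 and 0.717). The widest uncertainty was for Igfbp4, at 0.46 ± 0.35 (95% interval -0.30 to 1.21, adjusted p = 0.524). The median over the 14 was -0.02, with 7 positive and 7 negative, beside a median of 0.02 over all probe sets.

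**Figure D3:**
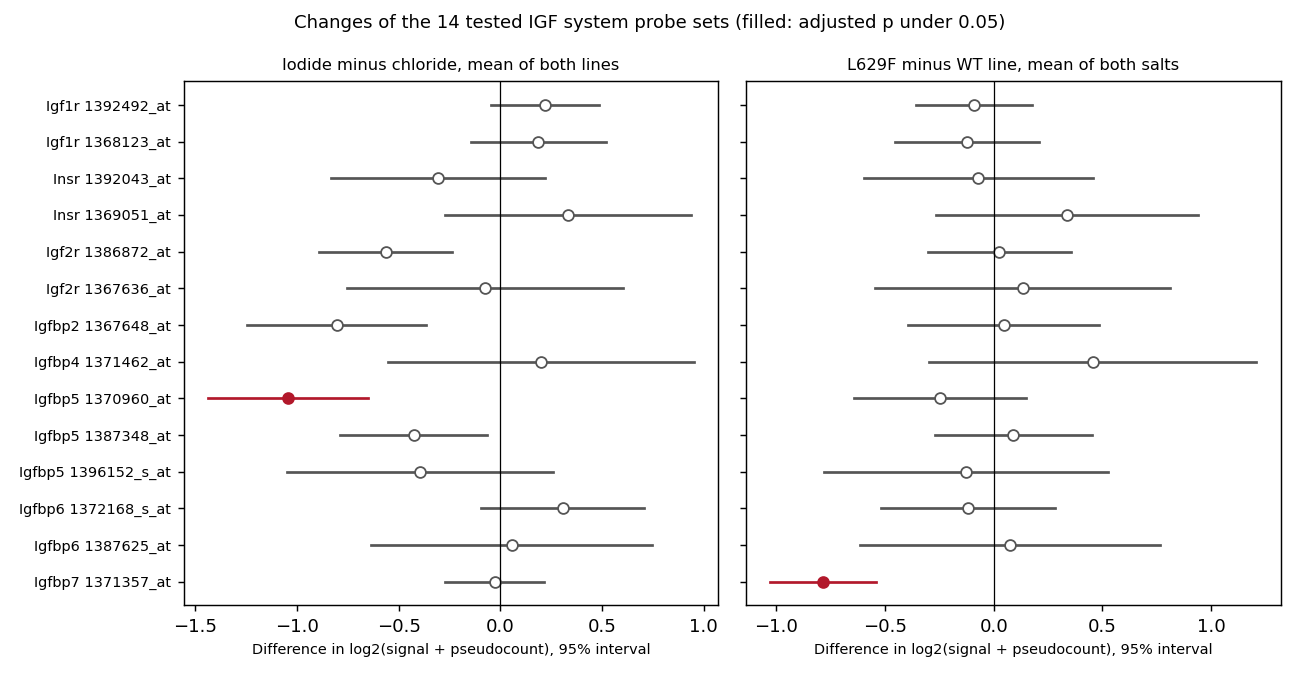
Difference in log2(signal + 35.3) with its 95% interval for the 14 tested probe sets, at the left iodide minus chloride averaged over both lines and at the right L629F minus WT averaged over both salts. Filled points passed at an adjusted p under 0.05: Igfbp5 (1370960_at, -1.04) at the left and Igfbp7 (-0.79) at the right.

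Of the proteases that cut binding proteins and their inhibitors, 6 of 13 genes on the array were tested. With iodide 1 fell and 0 rose, beside 0.848% of all probe sets called and 0.644% called lower. All 6 changes were negative with a median of -0.34, beside 50.6% negative and -0.003 over all probe sets, and 2 of 6 had an unadjusted p under 0.05, beside 12.2%. The gene that fell was Ctsd, the lysosomal protease cathepsin D, at 1966 and 2055 in L629F iodide and 3182 and 2559 in L629F chloride cells, and 2168 and 1937 in WT iodide and 3529.6 and 2837 in WT chloride cells. Its change was -0.56 ± 0.11 (adjusted p = 0.0417), and of the 8 fits without 1 array it passed only in that without WT iodide replicate 1 (adjusted p up to 0.269 in the others). With the GAPDH ratio as a covariate it was -0.43 (adjusted p = 0.109). Stc1, stanniocalcin, which blocks the protease PAPP-A, had -0.94 ± 0.26 (adjusted p = 0.119) and did not pass. Its signals were 122 and 141 on L629F iodide and 24.0 and 8.05 on WT iodide arrays, against 85.5 to 246 on chloride arrays. With iodide their geometric mean was under the filter level of 65.4, so Stc1 entered the list only through its chloride arrays. Its change is no support for the list. It is 1 of the 6 negative changes, enters the median, and is 1 of the 2 with an unadjusted p under 0.05. The changes of the other genes ran from -0.56 (Ctsd) to -0.10 (Mmp14).

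Between the lines, 1 of these 6 genes was called higher in L629F cells, Stc1, and 1 lower, Mmp14, beside 1.73% of all probe sets called. Stc1 had signals of 122 and 141 in L629F iodide against 24.0 and 8.05 in WT iodide cells, and 246 and 161 in L629F chloride against 110.4 and 85.5 in WT chloride cells, a difference of 1.27 ± 0.26 (adjusted p = 0.0282). The geometric mean of its signals was 161 on L629F and 36.7 on WT arrays, so Stc1 passed the filter of 65.4 only through the line in which it is high, and its call is no support for the list. Without the filter its adjusted p was 0.0798. The difference ran from 0.80 to 2.08 over the alternatives, and the call was lost in all fits without 1 array but that without WT iodide replicate 1 (adjusted p up to 0.133). Mmp14, a membrane-bound metalloprotease, had 2950.3 and 2896 in L629F iodide against 3473 and 3720.1 in WT iodide cells, and 2809.7 and 2779 in L629F chloride against 4259.6 and 4340.5 in WT chloride cells. Its difference was -0.46 ± 0.09 (adjusted p = 0.0258), and it too passed only without WT iodide replicate 1 (adjusted p up to 0.123 in the others).

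Signalling genes below the receptors were measured for 30 of 38 genes on the array, and limma called 0 of them with iodide, beside 0.848% of all probe sets. An unadjusted p under 0.05 was found for 2 of 30, fewer than the 12.2% of all probe sets. The lowest p were those of Irs2, the insulin receptor substrate (0.38 ± 0.12, adjusted p = 0.168), and the transcription factor Foxo3 (0.26 ± 0.10, adjusted p = 0.265). Irs2 had 5376 and 5563 in L629F iodide and 3604 and 4885 in L629F chloride cells, and 5293 and 6787 in WT iodide and 4402 and 4784 in WT chloride cells, so all iodide arrays were above all chloride arrays. The list's median was -0.01, with 16 negative. Between the lines 1 was called higher and 0 lower, beside 1.73% of all probe sets called: Eif4ebp1, the translation repressor that mTOR inactivates, differed by 0.75 ± 0.15 (adjusted p = 0.0277). It passed in 2 of 8 fits without 1 array, those without WT iodide replicate 2 or L629F iodide replicate 1 (adjusted p up to 0.142 in the others).

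Genes that FOXO factors turn on when insulin or IGF signalling is low were measured for 13 of 17 on the array, Insr and Irs2 included. With iodide 1 fell and 0 rose, beside 0.848% of all probe sets called and 0.644% called lower, and 7 of 13 had an unadjusted p under 0.05, beside 12.2%. Of the 13 changes 11 were negative and the median was -0.31, beside 50.6% negative and -0.003 over all probe sets. That median is the value of Insr by its brightest probe set, 1392043_at, which is 1 of the 11 negative changes. The other Insr probe set gave 0.33 ± 0.28, so no direction can be given for Insr. Bnip3, a mitochondrial protein of hypoxia and mitophagy, had a log2 change of -0.62 ± 0.11 (adjusted p = 0.0246). It had 2084 and 2813.5 in L629F iodide and 4773 and 4275 in L629F chloride cells, and 2364 and 2174 in WT iodide and 2946 and 2851 in WT chloride cells. Bnip3 passed in 2 of 8 fits without 1 array, those without WT iodide replicate 1 or L629F iodide replicate 2 (adjusted p up to 0.158 in the others). Gadd45a, a growth arrest gene, and Ccng2, cyclin G2, had -0.58 ± 0.13 and -0.61 ± 0.14 (adjusted p = 0.0654 and 0.0675) and did not pass. Among the 7 with an unadjusted p under 0.05, Irs2 went the other way, at 0.38 ± 0.12 (adjusted p = 0.168).

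Of the same 13 genes, 1 was called lower and 0 higher in L629F against WT cells, beside 1.73% of all probe sets called and 0.607% called lower. The median was -0.11, beside 0.015 over all probe sets, and 5 of 13 had an unadjusted p under 0.05, beside 18.0%. Among these 5, Bnip3 went the other way, higher in L629F cells by 0.36 ± 0.11 (adjusted p = 0.122). The called gene was Gadd45a, at 995 and 928 in L629F iodide against 2073 and 1603 in WT iodide cells. With chloride it had 1603 and 1199.9 in L629F against 3103 and 2635 in WT cells. Its difference of -0.96 ± 0.13 (adjusted p = 0.00405) passed in all 8 fits without 1 array but not without the intensity trend (adjusted p = 0.0618). Nor did the calls of Ctsd, Bnip3, Stc1, Mmp14 and Eif4ebp1 pass without that trend (adjusted p = 0.0519 to 0.258). Without the dim filter Ctsd (adjusted p = 0.0846), Bnip3 (0.0568) and Eif4ebp1 (0.0756) did not pass, and with the GAPDH ratio as a covariate Bnip3 did not (0.0559). These lists were written with earlier results of the data known, and genes in them share arrays and are not replicates.

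**Figure D4:**
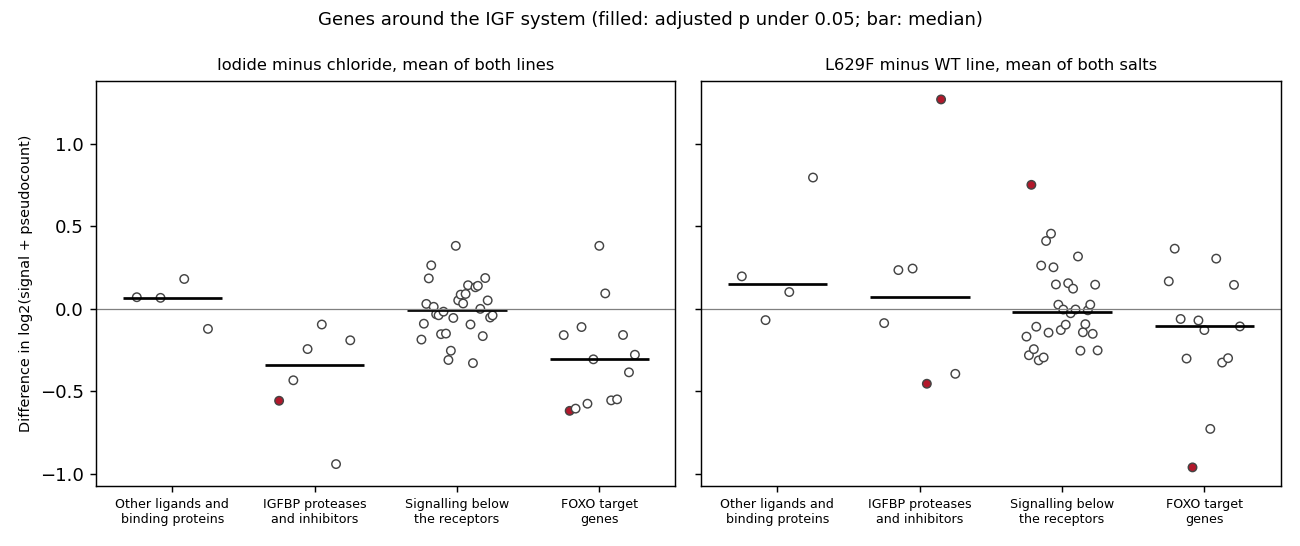
Difference in log2(signal + 35.3) for each tested gene of 4 lists (4, 6, 30 and 13 genes), at the left iodide minus chloride averaged over both lines and at the right L629F minus WT averaged over both salts. Bars are medians and filled points passed at an adjusted p under 0.05. The protease and FOXO lists have medians of -0.34 and -0.31 with iodide. The protease median includes Stc1, which passed the filter only through its chloride arrays. The FOXO median is the value of Insr by its brightest probe set.

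The genes whose log2 values followed those of Igfbp5 (1370960_at) most closely over the 8 arrays were Anxa6, annexin A6 (Pearson's r = 0.984), Clu, the secreted chaperone clusterin (0.973), and Lbp, the lipopolysaccharide-binding protein (0.962). Their iodide changes averaged -0.61 ± 0.13, -0.80 ± 0.12 and -0.40 ± 0.11 (adjusted p = 0.0497, 0.00863 and 0.115). Without 1 array, Anxa6 passed in 1 of 8 fits, that without L629F chloride replicate 1, and Clu in 4 of 8, failing without either WT chloride array, L629F chloride replicate 2 or L629F iodide replicate 1 (adjusted p up to 0.267 and 0.0734). Closest to Igfbp7 were Maf1, a repressor of RNA polymerase III (0.981), Osbpl11, an oxysterol-binding protein relative (0.977), and Ldhb, a subunit of lactate dehydrogenase (0.977). Of these Ldhb passed between the lines, at -0.62 ± 0.11 (adjusted p = 0.0138), in 4 of 8 fits without 1 array, and not without either WT chloride array, L629F chloride replicate 1 or L629F iodide replicate 1 (adjusted p up to 0.0911). Without the intensity trend none of Anxa6, Clu and Ldhb passed (adjusted p = 0.28, 0.145 and 0.11). The points are the same 8 arrays for every gene and share their group structure, so these values are a description.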

How the data were processed

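Expression was read on 8 single-colour rat arrays. The authors deposited MAS5 signal intensities that are linear, with 1 value for every probe set on every array; the tool is named per the submitters' processing notes, with version and settings not given in the sources used here. A mean that leaves out 2% of values at each end was 500.2 on the arrays, so they were already scaled. Gene symbols came from the platform annotation, updated through gene identifiers to RefSeq's GRCr8 gene list, where all 21 member probe sets matched. Left out were 57 controls and then the dimmest 40% of probe sets by mean log2 signal. All others were fitted as log2(signal + 35.3), where 35.3 is the 25th percentile over the 8 arrays, which understates changes of dim genes.

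The fit used limma 3.58.1 in R 4.3.3 (lmFit, eBayes with an intensity trend; 4 residual and 8.89 prior degrees of freedom) with a coefficient per group and no further scaling. P-values were two-sided, adjusted by Benjamini-Hochberg over all 18625 probe sets, and called under 0.05. Promoters were searched with pandas 2.3.3 in Python 3.11.15, where matplotlib 3.10.9 drew the figures. The fit was tested on simulated data. The number of arrays limits the precision.

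All 10 genes are named, though not every probe set of them, with further genes of the lists by smallest p (up to 4 per list) and the 3 genes most like a called member. Members and lists were chosen with earlier results of these data known. Alternatives changed the pseudocount, filter, scaling, choice of probe set, variance trend, arrays, replicate term and RNA quality, and left out each array. Deviations of same-numbered replicates correlated at 0.04 to 0.21 between groups, all positive and under 0.1 for 2 of the pairs of groups. The GAPDH and beta-actin ratios were higher on replicate 2 than on replicate 1 in every group. The labels do not pair the replicates, so the main fit took no pairs, and a replicate term was run as an alternative.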

Additional observations from a re-analysis of the deposited data

How the results depend on the processing

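No called change of a member turned its sign under any alternative run, and over all alternatives Igfbp5 (1370960_at) kept an iodide change of -1.26 to -0.87 and Igfbp7 a line difference of -0.96 to -0.66. The number of member probe sets called for iodide averaged over both lines was 0 without a dim filter, 0 without the intensity trend and 2 with a replicate block (Igfbp5, and Igfbp2 at adjusted p = 0.0425), and 0 to 1 without 1 array. For iodide in WT cells it was 1 with a replicate block, 1 with the GAPDH ratio as a covariate and 1 with only the arrays compared, each time Igfbp5. For L629F against WT over both salts it was 0 without the intensity trend; with chloride it was 0 with a pseudocount of 1, 0 without a dim filter and 0 without the trend, and 0 to 1 without 1 array; with iodide it was 1 with a replicate block and 1 with the GAPDH covariate, each time Igfbp7. The causes were not tested. With the replicate block, 523 probe sets were called for iodide over both lines against 158 without it; the replicate numbers are not shown to pair the arrays. Centring on the median of all probe sets split the calls between the lines into 153 higher and 1176 lower, against 209 and 113. A fit without 1 array assumes that the lone array of its group varies like the others.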
